A study of Rattus norvegicus with 18 samples.

Results

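Vesicles that rat pXEN cells form in serum-free medium were compared with CHIR99021-vacuolated cells of the same cell type that had been sorted. These were 3 libraries against 3 of 18 in the series, picked out by their titles. pXEN cells are extraembryonic endoderm precursor cells derived from rat blastocysts, and the design set the expression profiles of their different shapes side by side. The 3 serum-free vesicle samples (passages 32, 35 and 42) were grown in N2B27, a defined medium, with 3 µM CHIR99021, an inhibitor of the kinase GSK3, and 10 ng/ml murine LIF, without a feeder layer of mouse embryonic fibroblasts. The 3 sorted samples (passages 35, 38 and 49) were grown in the routine culture of these cells with 0.5 µM CHIR99021 and then sorted, by a method that the labels do not give. All samples were WKY rat cells labelled female, carried no stated genetic change, and were prepared independently, though whether each was a separate derivation is not stated, so a p-value measures the spread between these samples. The groups differed at once in shape, medium, CHIR99021 dose and sorting, and in LIF unless the routine culture held it. LIF is stated for the vesicles only. The parts of these in any difference, and of a feeder layer if the routine culture had one, cannot be told apart. A second pair of groups, used for comparison, was vesicles grown with serum (passages 32, 35 and 49, with a CHIR99021 dose that the labels leave unclear) and unsorted cells vacuolated with 0.5 µM CHIR99021 (passages 37, 41 and 51).

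Extraembryonic endoderm forms from the primitive endoderm of the blastocyst and gives rise to parietal endoderm, which lays down a thick basement membrane, and to visceral endoderm, an absorptive epithelium that takes up and secretes nutrients. Gata6, Gata4, Sox17 and Pdgfra mark the lineage, and precursor cells of the rat lineage also retain Pou5f1. GSK3 is the kinase that marks beta-catenin for destruction, so its inhibition is known to stabilise beta-catenin, which with TCF and LEF factors switches on Wnt target genes such as Axin2 and Lgr5. LIF acts through its receptor, Lifr, and the factor STAT3.

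The files gave strand-specific read counts for 28695 gene symbols, with 5.76 to 11.1 M counts (M, 1e+06) in serum-free vesicles and 8.75 to 12.1 M in sorted cells. The 2 most abundant clone-style symbols took 53.6 to 61.1% of the counts in vesicles and 45.8 to 53.4% in sorted cells, which left 2.67 to 4.5 M and 4.48 to 6.54 M for all other genes. All 10 extraembryonic endoderm markers (among them Gata4, Gata6, Sox17, Pdgfra, Foxa2 and Lama1) averaged at least 1 CPM (counts scaled to a total of 1e+06 with correction for composition) in both groups. Of 11 fibroblast markers 1 reached 1 CPM in vesicles and 3 in sorted cells: Col1a2, Dcn and Postn had 0 counts in all 6 libraries, whereas Col1a1 averaged 1.08 CPM in vesicles and 3.70 CPM in sorted cells. Of 10 markers of pluripotent cells 2 reached 1 CPM in vesicles and 5 in sorted cells, with Nanog, Sox2 and Dppa3 at 0 in all 6. Although the cells were labelled female, Y-linked transcripts were counted in all 18 libraries of the series, with 250 to 1425 counts of Eif2s3y and 53 to 332 of Kdm5d, where reads of an X-linked copy could contribute. Serum-free vesicle replicate 2 held 20 genes at least 10-fold above both replicates 1 and 3 at 10 CPM or more. Each of the other 5 libraries held 0 such genes. Where leaving out vesicle replicate 2 moved a count by more than 1.5 times, the count without it is given as well.

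Of the 11503 genes tested, 5707 (49.6%) differed between serum-free vesicles and sorted cells at an adjusted p below 0.05 in edgeR's quasi-likelihood test. Of all genes tested, 25.1% (2891) were higher in the vesicles and 24.5% (2816) were lower, and the median log2 fold change was 0.01. More than 2-fold differences were seen in 1622 genes that were higher and 1188 that were lower. The 3 vesicle libraries lay above all 3 sorted libraries for 28.7% of genes and below all 3 for 27.8%. Without vesicle replicate 2, 4999 genes differed, of which 4824 were among the 5707. Every count of a gene list below is to be read against these shares. The first principal component of the 6 libraries held 78.4% of the variance and placed the vesicles at 56.9 to 63.7 and the sorted cells at -61.7 to -59.1. The second, with 8.94%, spread vesicle replicates 1, 2 and 3 from -36.0 through 3.84 to 33.0, a wider range than that of the sorted cells (-8.59 to 6.33). In bulk RNA, fewer cells of a type and less RNA per cell cannot be told apart.

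**Figure D1:**
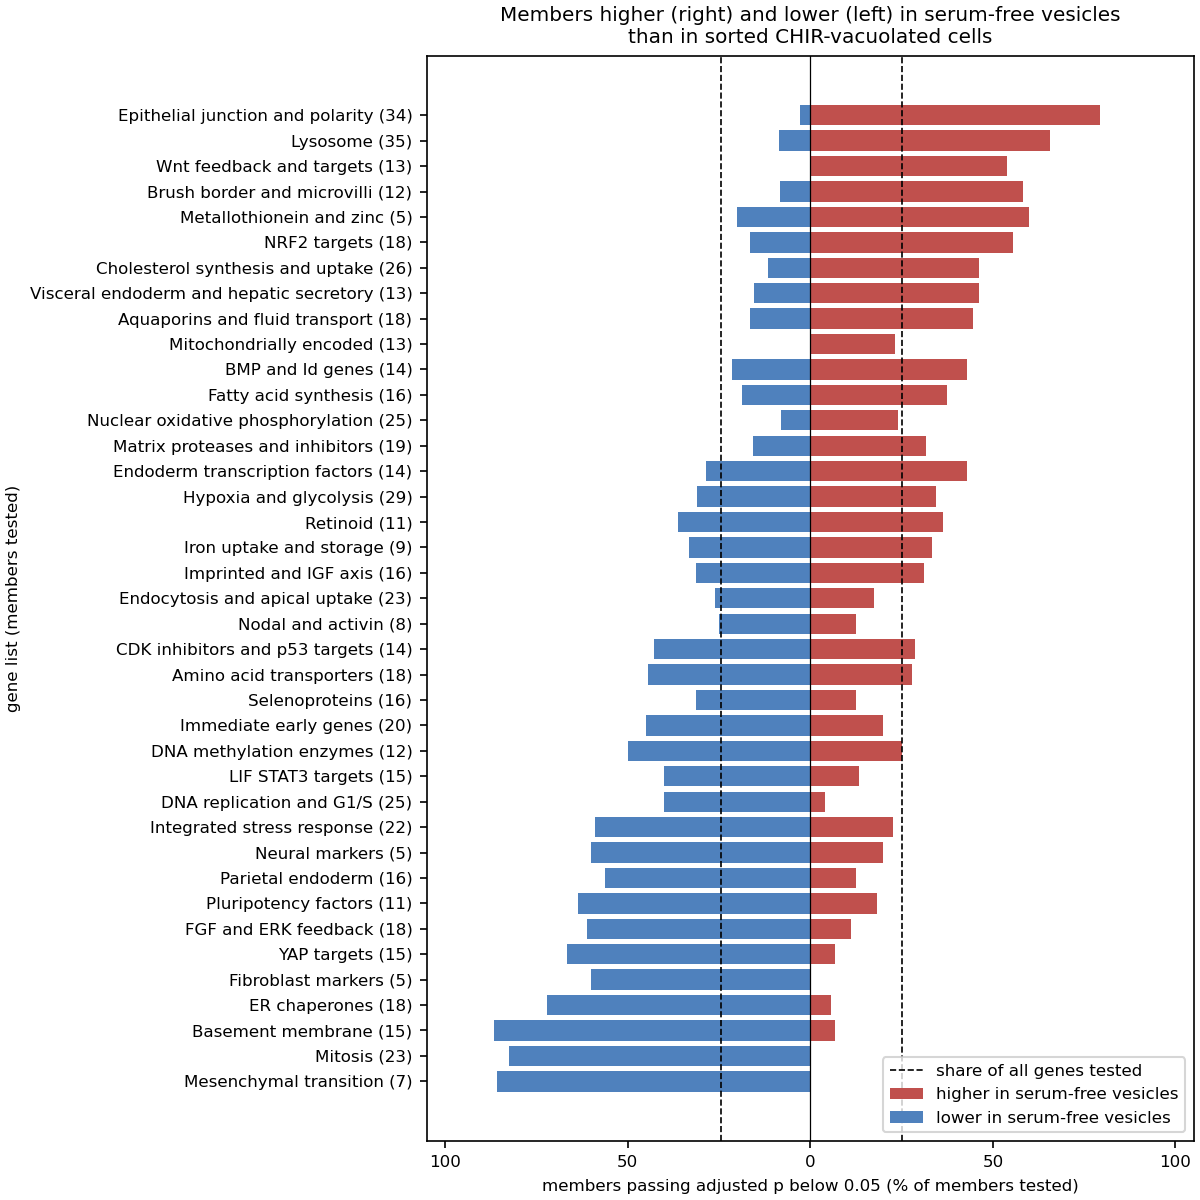
Share of tested members of each gene list that passed adjusted p below 0.05, higher (right, red) or lower (left, blue) in serum-free vesicles than in sorted CHIR99021-vacuolated cells, as a percentage of the members tested (number in brackets). Dashed lines mark the shares among all genes tested, 25.1% and 24.5%. Lists with at least 5 tested members are drawn, from epithelial junction genes at the top to mesenchymal and mitosis genes at the bottom.

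Target and feedback genes of the Wnt pathway were higher in the vesicles: 7 of 13 tested members rose and 0 fell, with a median log2 fold change of 1.69 against 0.01 over all genes. Without vesicle replicate 2 the counts were again 7 and 0, and without replicate 3 they included 2 lower members. Lgr5, the receptor for R-spondins and a target of beta-catenin, stood at 58.6, 45.2 and 34.4 CPM in vesicle replicates 1 to 3 and at 4.84, 3.13 and 2.84 CPM in the sorted replicates. These groups did not overlap, and Lgr5 was 12.8-fold higher (log2 fold change 3.68, SE 0.25, adjusted p = 4.96e-11). Tcf7, a nuclear partner of beta-catenin, was at 7.72, 9.83 and 7.92 CPM against 0.23, 0.447 and 0.947 CPM, 14.3-fold higher (log2 3.84, SE 0.43, adjusted p = 6.57e-08). Its relative Lef1 had 7, 9 and 5 counts in the vesicles and 0 in every sorted library, at least 9.58-fold higher over the group with a floor of 3 counts. Rnf43, a ubiquitin ligase that removes Wnt receptors, was at 11.3, 14.0 and 10.7 CPM against 0.807, 1.56 and 0.394 CPM (log2 fold change 3.74). Apcdd1, a membrane inhibitor of Wnt signalling, rose by 4.58 on the log2 scale, and Kremen1, a co-receptor of the Dkk inhibitors, by 2.25. Axin2, the scaffold of the complex that destroys beta-catenin, varied among the vesicles, at 9.04, 3.04 and 4.08 CPM against 1.15, 2.35 and 1.34 CPM (log2 fold change 1.69, SE 0.49, adjusted p = 0.00731), and without vesicle replicate 1 it missed the threshold (log2 1.14, adjusted p = 0.0603). The proliferation gene Myc (log2 fold change -0.30, adjusted p = 0.412) and Ccnd1 (-0.76, adjusted p = 0.0515) did not pass, nor did Fzd7, Tnfrsf19, Bambi and Sp8. Nkd1, another feedback inhibitor, had 2 counts in the vesicles and 0 in sorted cells, too few to test.

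The promoters of Axin2 and Tcf7 are shown because both genes rose and both windows hold a sequence that TCF and LEF factors are known to recognise. They are RefSeq promoters on the rat build GRCr8, at chr10:94398535-94398834 on the plus strand for Axin2 and chr10:36954230-36954529 on the minus strand for Tcf7. Capitals mark CTTTGAT or CTTTGAA, searched on both strands.
Axin2: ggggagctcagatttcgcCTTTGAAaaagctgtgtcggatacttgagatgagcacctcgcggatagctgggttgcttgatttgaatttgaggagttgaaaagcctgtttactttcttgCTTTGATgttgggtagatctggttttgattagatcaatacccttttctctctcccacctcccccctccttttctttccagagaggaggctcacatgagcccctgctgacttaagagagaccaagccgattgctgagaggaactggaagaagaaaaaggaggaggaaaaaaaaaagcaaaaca
Tcf7: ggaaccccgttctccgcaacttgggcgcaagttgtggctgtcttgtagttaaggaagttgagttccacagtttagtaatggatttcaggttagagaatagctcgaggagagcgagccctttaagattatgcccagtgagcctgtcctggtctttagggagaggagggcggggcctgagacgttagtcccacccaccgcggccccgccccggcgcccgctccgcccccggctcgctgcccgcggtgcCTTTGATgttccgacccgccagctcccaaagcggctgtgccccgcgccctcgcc
Axin2 holds CTTTGAA beginning 232 bases and CTTTGAT beginning 132 bases before its transcription start, and Tcf7 holds CTTTGAT beginning 4 bases before its start. Among the 7 Wnt list members that rose, 5 matched a promoter in the table and 2 of these held either motif, while 2 others of the list that did not pass, Fzd7 and Sp8, held CTTTGAA. Over all genes tested, 8520 of 11503 matched and 463 promoters (5.43%) held either motif, against 8.64% of all 27457 promoters. The windows of Lef1, Rnf43 and Apcdd1 held neither. A match is a description of the letters and not of binding.

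**Figure D2:**
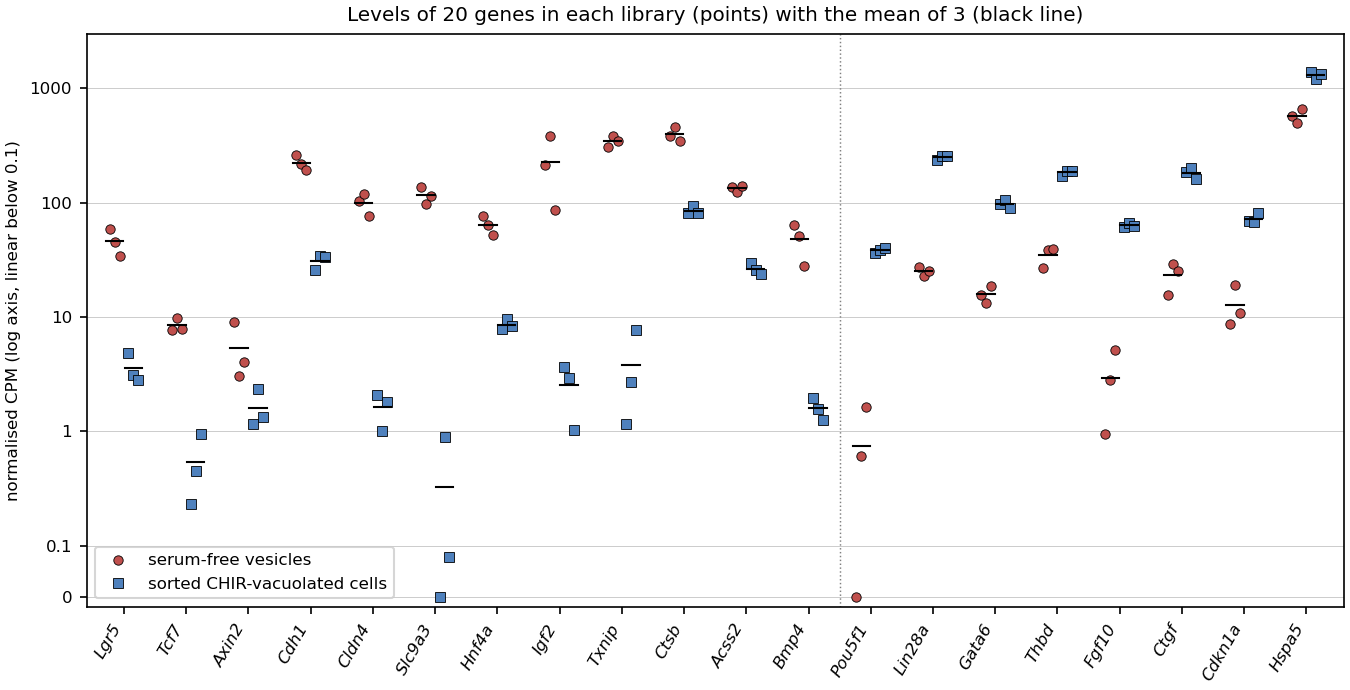
Normalised CPM (log axis, linear below 0.1) of 20 genes in each of the 3 serum-free vesicle libraries (red circles) and the 3 sorted libraries (blue squares), with black lines for means. Left of the dotted line are genes that were higher in vesicles, such as Cdh1 at 191 to 260 against 25.6 to 34.1 CPM, and right of it genes that were lower, such as Lin28a at 22.8 to 27.5 against 237 to 258 CPM.

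Epithelial junction and polarity genes rose most often of the lists with at least 5 tested members: 27 of 34 were higher and 1 was lower, with a median of 1.22. The counts were again 27 and 1 without vesicle replicate 2, and in 27 members all 3 vesicle libraries lay above all sorted ones. Cdh1, the adhesion molecule of adherens junctions, stood at 260, 220 and 191 CPM in vesicles and at 25.6, 34.1 and 33.8 CPM in sorted cells, 7.16-fold higher (log2 2.84, SE 0.20, adjusted p = 1.52e-10). Epcam, an epithelial adhesion molecule, was at 282, 302 and 290 CPM against 49.5, 41.9 and 53 CPM, with little spread in either group (log2 2.59). Among claudins, which set the permeability of tight junctions, Cldn4 was at 104, 119 and 76.1 CPM against 2.07, 1.01 and 1.81 CPM (59.8-fold, adjusted p = 1.58e-11). Cldn23 was at 79.3, 77.2 and 39.7 CPM against 0.346, 0.447 and 0.394 CPM (158-fold), while Cldn6 differed less (log2 fold change 1.18). Ocln, Cgn, Tjp1 and Tjp3, other tight-junction proteins, rose by 2.32, 0.92, 0.91 and 1.85 on the log2 scale. Rab25, a GTPase of apical recycling, had 476 counts against 2, a ratio of 326 (95% interval from counting error 89.7 to 2698). The transcription factor Grhl2, known to drive Cdh1 and claudin expression, was at 30.5, 21.4 and 13.6 CPM against 2.07, 3.02 and 3.08 CPM (log2 2.97). Perp, a desmosome protein, was the member called lower, though the groups overlapped (log2 -0.66, adjusted p = 0.0360), and without vesicle replicate 1 or 3 or sorted replicate 1 or 3, or with DESeq2, 0 members fell.

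The 4 tested keratins, the intermediate filaments of epithelia, all rose, by 1.11 (Krt18), 1.17 (Krt19) and 1.19 (Krt8) on the log2 scale. Krt8 stood at 925, 883 and 886 CPM in the vesicles against 463, 349 and 367 CPM. Krt23 had 48 counts against 0, at least 21.9-fold higher over the group. Mesenchymal transition genes showed the opposite direction, with 6 of 7 lower and 0 higher (median -1.48). Vim, the mesenchymal intermediate filament, was at 12.1, 19.2 and 27 CPM in vesicles and at 53, 46.5 and 56.9 CPM in sorted cells (log2 -1.40, SE 0.20, adjusted p = 3.23e-06). The repressor Snai1 fell by 1.72 and fibronectin, Fn1, by 1.48 on the log2 scale. Zeb1, another repressor of epithelial genes, had 2 counts against 60, a ratio of 21.9 in favour of sorted cells (95% interval from counting error 5.81 to 185). Beside this, summed fibroblast markers were at 1.94 to 3.76 CPM in vesicles and 7.02 to 14.7 CPM in sorted cells, 3 of the 11 being at 0 in all 6 libraries, and 3 of 5 tested fibroblast genes were lower (1 without vesicle replicate 2). The part of fibroblasts in the result was not tested.

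Endoderm transcription factors moved in both directions, with 6 of 14 higher and 4 lower. Gata6, a primitive endoderm factor, was at 15.4, 13.2 and 18.9 CPM in vesicles and at 97.5, 106 and 89.2 CPM in sorted cells, 6.14-fold lower (log2 -2.62, SE 0.15, adjusted p = 1.23e-12). Gata4 fell by less, from 307 ± 26.0 to 186 ± 44.1 CPM (mean ± SD, n = 3, log2 -0.72, adjusted p = 0.000319). Sox17 (log2 -0.35, adjusted p = 0.0686) and Sox7 (log2 -0.50, adjusted p = 0.128) did not pass. Pdgfra was at 363, 262 and 253 CPM against 194, 266 and 195 CPM, groups that overlapped (log2 0.42, adjusted p = 0.0327), and it missed the threshold without vesicle replicate 1 (0.24, adjusted p = 0.243). Hnf4a, a factor of visceral endoderm, liver and gut, was at 75.9, 64.3 and 51.9 CPM against 7.84, 9.61 and 8.36 CPM, 7.42-fold higher (log2 2.89, SE 0.20, adjusted p = 2.02e-11). Cdx2, the factor of trophoblast and intestine, had 479 counts against 3, a ratio of 219 (95% interval from counting error 74.3 to 1064). Gata2 rose by 2.47 on the log2 scale, Foxa3 by 2.76 and Foxa2 by 0.43. Of other trophoblast markers, Elf5 had 31 counts in vesicles and 7 in sorted cells, and Krt7 had 5 and 0. Tfap2c had 4 and 11 counts, Ascl2 1 and 0, and Gata3 0 and 1. Hand1 and Prl3d1 had 0 in both groups, and Eomes fell by 2.10.

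Members of the visceral endoderm and hepatic secretory list did not move as 1 group: 6 of 13 rose and 2 fell, and without vesicle replicate 2 the counts were 4 and 4. The count of higher members depended on the filter: with no low-count filter, which tests more members, 14 rose. Apoe, an apolipoprotein, was at 2750, 2949 and 3680 CPM in vesicles and at 1380, 1047 and 1288 CPM in sorted cells (log2 1.34, SE 0.16, adjusted p = 1.32e-07), and the signalling protein Ihh rose by 0.93. The uptake receptor pair cubilin and amnionless was lower. Amn was at 1.69, 3.64 and 1.86 CPM against 48.2, 52.8 and 63.8 CPM (22.2-fold lower, adjusted p = 4.66e-13) and Cubn at 29.6, 42.0 and 26.7 CPM against 142, 239 and 196 CPM. Their partner Lrp2, megalin, ranged from 104 to 457 CPM among the vesicles, around the 133 to 175 CPM of the sorted cells, and did not pass (adjusted p = 0.226).

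Vesicle replicate 2 carried most of the counts of several secretory and gut genes. Afp, alpha-fetoprotein, had 5, 252 and 2 counts in vesicle replicates 1 to 3, and Apoa1 had 2, 346 and 0, while the sorted libraries held 0 of Afp and 2 of Apoa1 in all. Lypd8, a secreted protein of gut epithelium, was at 14.9, 307 and 1.05 CPM, and Muc13, a membrane mucin, at 0.188, 47.3 and 0.116 CPM. Lgals4, Apoa4, Cdh17, C3, Mgam, Fga and Fgb were among the 20 genes as well. Ttr, a marker of visceral endoderm, had 3 counts in the vesicles, all in replicate 2. Vil1, the actin bundler of microvilli, was at 5.27, 35.6 and 2.56 CPM against 0.112 to 0.346 CPM in sorted cells, so it stayed above every sorted library in each vesicle replicate while its mean rested on replicate 2.

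**Figure D3:**
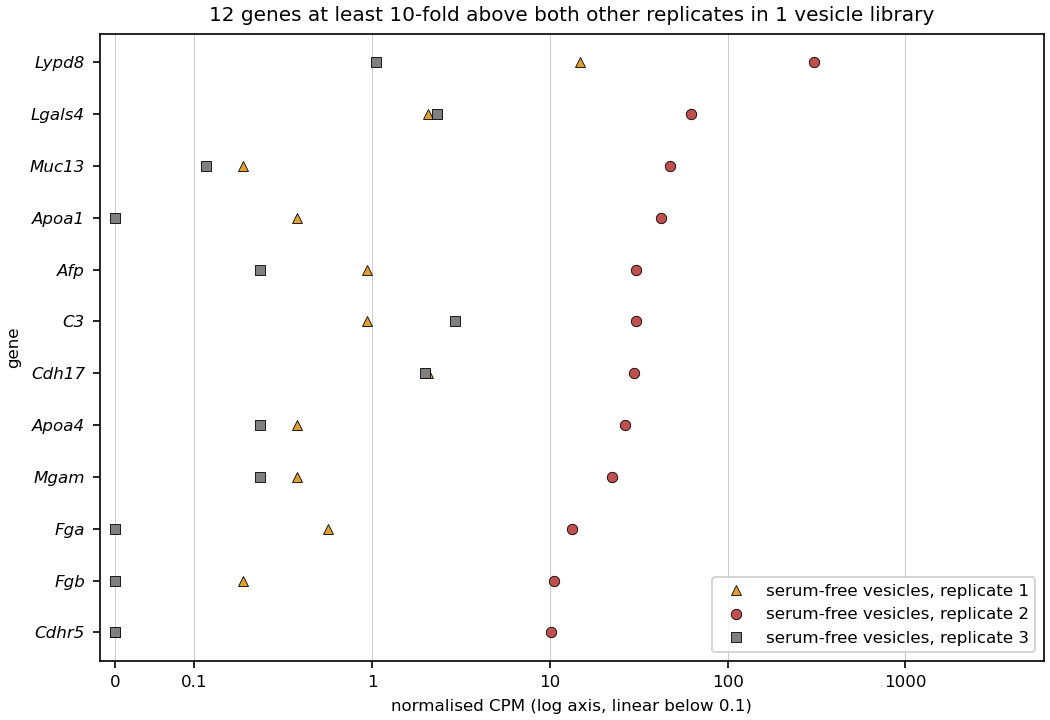
Normalised CPM (log axis, linear below 0.1) of 12 of the 20 genes that vesicle replicate 2 (red circles) held at least 10-fold above replicates 1 (triangles) and 3 (squares). Replicate 2 lies between 10.2 (Cdhr5) and 307 CPM (Lypd8), while Afp is at 30.6 CPM against 0.941 and 0.233 CPM.

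Brush border genes rose in 7 of 12 tested members and fell in 1 (6 and 1 without vesicle replicate 2, and 11 higher without replicate 3). Tmprss2, an apical membrane protease, was at 191, 194 and 189 CPM in vesicles and at 10.1, 6.15 and 8.76 CPM in sorted cells, 22.8-fold higher with almost no spread among vesicles (log2 4.51, SE 0.16, adjusted p = 9.18e-17). Ezr, Pls1 and Eps8, which link or bundle the actin of microvilli, rose by 0.34, 1.23 and 1.36. Ion and fluid transporters rose in 8 of 18 and fell in 3, with a median of 0.59. Slc9a3, the apical sodium-proton exchanger, was at 136, 97.6 and 114 CPM against 0, 0.894 and 0.0789 CPM (log2 8.52, adjusted p = 2.00e-11). The cytosolic carbonic anhydrase Car2 was at 58.6, 69.4 and 46.2 CPM against 3.00, 1.79 and 1.97 CPM (25.9-fold), whereas the membrane-bound Car12 was at 0.565, 0.364 and 0.233 CPM against 33.4, 37.1 and 39.1 CPM. Slc12a2, the sodium-potassium-chloride cotransporter of fluid-secreting epithelia, was at 310, 226 and 232 CPM against 79.0, 75.7 and 85.3 CPM (3.19-fold). The water channels Aqp8 and Aqp11 rose by 1.49 and 2.58 and the chloride channel Cftr by 2.92. Slc4a4, a sodium-bicarbonate cotransporter, was 35.0-fold higher (adjusted p = 2.83e-08). The membrane protease Prss8 was at 85.1, 78.8 and 55.0 CPM against 7.49, 5.14 and 5.37 CPM, and the metalloprotease Mmp15 was 9.43-fold higher.

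**Figure D4:**
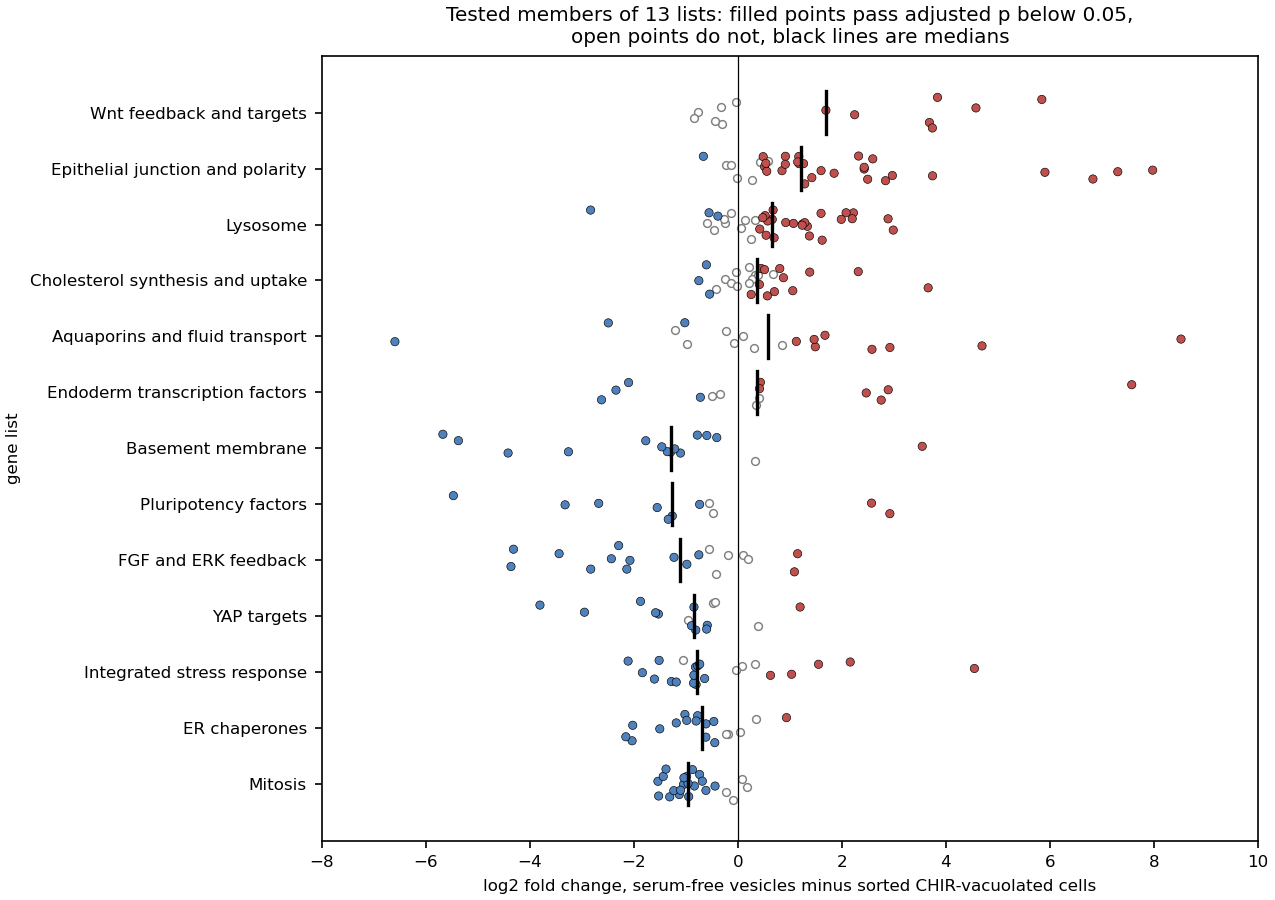
Log2 fold changes (serum-free vesicles minus sorted cells) of the tested members of 13 lists. Filled points passed adjusted p below 0.05 (red higher, blue lower), open points did not, and black lines are medians. The medians run from 1.69 (Wnt feedback and targets) to -1.29 (basement membrane), and no mitosis gene among the filled points lies above 0.

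Basement membrane genes were lower in 13 of 15 tested members and higher in 1, with a median of -1.29. Lama1, the laminin chain of the earliest embryonic basement membranes, was at 992, 877 and 876 CPM in vesicles and at 1836, 2919 and 2262 CPM in sorted cells (log2 -1.35, adjusted p = 1.07e-05). Lamb1 was at 697, 586 and 669 CPM against 1277, 1800 and 1450 CPM (2.32-fold lower, adjusted p = 4.36e-08), and the collagen Col4a1 at 1125, 843 and 1004 CPM against 1884, 2955 and 2434 CPM. The nidogens, which link laminin to collagen, were near 0 in vesicles: Nid2 was at 0.753, 0.486 and 0.349 CPM against 15.8, 38.1 and 24.9 CPM. Nid1 had 3 counts against 184, a ratio of 44.8 (95% interval from counting error 15.1 to 219). Of the parietal endoderm list, which shares several of these genes, 9 of 16 fell and 2 rose (1 without vesicle replicate 1 or sorted replicate 1 or 3). Thbd, thrombomodulin, was at 26.7, 38.6 and 39.2 CPM against 172, 188 and 191 CPM (5.23-fold lower, adjusted p = 1.47e-12), while Sparc fell by only 0.40. Stra6, the retinol transporter, was 70.1-fold lower (adjusted p = 1.67e-09), and Pth1r, a parietal endoderm receptor, did not pass (log2 -0.16, adjusted p = 0.326).

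Pluripotency factors were lower in 7 of 11 tested members and higher in 2 (1 without vesicle replicate 2 or 3 or any 1 sorted replicate). Pou5f1 was at 0, 0.607 and 1.63 CPM in vesicles and at 36.2, 38.2 and 40.2 CPM in sorted cells (log2 -5.47, SE 0.31, adjusted p = 2.25e-12). Lin28a, an RNA-binding protein of early embryonic cells, was at 27.5, 22.8 and 25.4 CPM against 237, 258 and 258 CPM, 9.98-fold lower (adjusted p = 3.19e-15). Sall4, Tbx3, Klf5 and Klf4 fell by 1.55, 1.34, 1.26 and 0.73, and Tdgf1, the Nodal co-receptor, by 2.67 at about 1 CPM or less. Dnmt3l, Dnmt3b and Dnmt3a, the cofactor and enzymes of new DNA methylation, fell by 5.21, 2.38 and 1.67, while Dnmt1, which maintains methylation, overlapped between the groups (log2 0.38, adjusted p = 0.0334) and did not pass without sorted replicate 1. Of LIF and STAT3 targets, 6 of 15 fell and 2 rose, and the part of LIF in this was not tested. Each of those 2 rises was lost in at least 1 other setting. The LIF receptor Lifr was at 41.8, 47.7 and 68.8 CPM against 184, 221 and 179 CPM (3.67-fold lower, adjusted p = 1.65e-10). Socs3, the feedback inhibitor, overlapped between the groups, at 32.4, 20.2 and 16.8 CPM against 15.1, 17.2 and 15.1 CPM (log2 0.53, adjusted p = 0.0254), and missed the threshold without vesicle replicate 1 (0.22, adjusted p = 0.320). Stat3 itself did not pass (log2 0.02, adjusted p = 0.902).

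Of the FGF and ERK list, which holds ligands, receptors and feedback genes, 11 of 18 members fell and 2 rose (1 without vesicle replicate 2 or 3, or without sorted replicate 1 or 2), with a median of -1.10. Fgf10 was at 0.941, 2.79 and 5.12 CPM in vesicles and at 60.8, 65.9 and 63.1 CPM in sorted cells (19.8-fold lower, adjusted p = 1.02e-09). The receptors Fgfr1, Fgfr2, Fgfr3 and Fgfr4 fell by 2.29, 3.43, 2.83 and 2.43 on the log2 scale. The feedback phosphatase Dusp6 overlapped between the groups, at 2.07, 8.98 and 10.1 CPM against 3.23, 2.57 and 4.34 CPM (log2 1.09, adjusted p = 0.0303), while the inhibitors Spry1 (-0.20, adjusted p = 0.501) and Spry4 (0.19, adjusted p = 0.565) did not pass. Targets of YAP, the effector of the Hippo pathway, fell in 10 of 15 members and rose in 1 (0 without vesicle replicate 2 or sorted replicate 3, 2 without vesicle replicate 3 or sorted replicate 2). Ctgf, a matricellular protein, was at 15.4, 29.4 and 25.4 CPM against 186, 202 and 161 CPM (7.71-fold lower, adjusted p = 8.89e-09), and Ankrd1 at 0.188, 0.243 and 0.582 CPM against 6.45, 4.02 and 5.21 CPM. Yap1 fell by 0.89. In the BMP list 6 of 14 rose and 3 fell. The ligand Bmp4 was at 64.0, 51.1 and 28 CPM against 1.96, 1.56 and 1.26 CPM (log2 fold change 4.91). The targets Id2, Id3 and Smad6 rose by 1.68, 1.41 and 1.97. By contrast, Id4 fell by 1.61 (adjusted p = 6.18e-08) and Id1 did not pass (0.16, adjusted p = 0.584). Nodal, a ligand of the same superfamily as Bmp4, was at 0.188, 0.121 and 0.699 CPM against 6.11, 4.58 and 5.84 CPM.

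Insulin-like growth factor genes gave some of the highest values. Igf2, a growth factor, was at 215, 380 and 87.1 CPM in vesicles and at 3.69, 2.91 and 1.03 CPM in sorted cells, 93.8-fold higher (log2 6.55, SE 0.62, adjusted p = 1.73e-06), and all 3 vesicle libraries lay far above the sorted ones. Igf2r, which takes Igf2 and lysosomal enzymes to lysosomes, was at 140, 129 and 101 CPM against 11.2, 17.7 and 17.5 CPM, and the binding protein Igfbp2 at 254, 179 and 137 CPM against 15.9, 13.2 and 13.8 CPM. Grb10, an adaptor that restrains insulin signalling, ranged from 5.71 to 83.4 CPM among the vesicles. Phlda2 and Cdkn1c, growth-restraining imprinted genes, went the other way, with Phlda2 at 1.51, 5.10 and 1.63 CPM against 45.7, 49.0 and 47.5 CPM and Cdkn1c lower by 2.73. Of the whole imprinted and IGF list 5 of 16 rose and 5 fell.

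Lysosomal genes rose in 23 of 35 tested members and fell in 3, with a median of 0.66 (19 and 3 without vesicle replicate 2). Ctsb, a cysteine protease, was at 385, 457 and 350 CPM in vesicles and at 80.5, 93.6 and 81.3 CPM in sorted cells (4.66-fold, adjusted p = 4.74e-12). The glycosidase Glb1 rose 4.23-fold, and Grn, progranulin, was at 95.5, 114 and 104 CPM against 12.4, 15.8 and 14.1 CPM. Tfeb, the regulator of lysosomal genes, fell by 0.55. Cholesterol synthesis and uptake genes rose in 12 of 26 members and fell in 3. Hmgcs1, an early enzyme of the pathway, was at 124, 107 and 96.7 CPM against 56.7, 56.4 and 44.3 CPM (2.08-fold, adjusted p = 3.93e-07). Acss2, which makes acetyl-CoA from acetate, was at 136, 125 and 140 CPM against 29.5, 25.6 and 23.9 CPM (5.08-fold, adjusted p = 7.08e-13), and the desaturases Fads1 and Fads2 rose by 1.26 and 1.67 while Fasn, the fatty acid synthase, did not pass (log2 -0.01, adjusted p = 0.980). Txnip, an arrestin known to restrain glucose uptake, was at 307, 384 and 348 CPM against 1.15, 2.68 and 7.65 CPM, 84.0-fold higher (adjusted p = 5.05e-08), and its relative Arrdc4 at 49.9, 49.8 and 51.9 CPM against 0.23, 0.559 and 2.84 CPM (36.9-fold). Glycolysis and hypoxia genes were split, with 10 of 29 higher and 9 lower.

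Genes of protein folding in the endoplasmic reticulum were lower in 13 of 18 tested members and higher in 1. The chaperone Hspa5 was at 578, 500 and 657 CPM in vesicles and at 1390, 1202 and 1345 CPM in sorted cells (2.27-fold lower, adjusted p = 2.04e-07), and Hsp90b1 and Dnajb11 were 4.09- and 2.83-fold lower. Xbp1, a transcription factor of the same response, rose by 0.94. In the integrated stress response list, 13 of 22 fell and 5 rose. The serine and folate-cycle enzymes Phgdh, Shmt2 and Mthfd2 were 3.56-, 3.04- and 4.31-fold lower, and Atf4, the factor that drives many of these genes, did not pass (log2 0.07, adjusted p = 0.678). Without vesicle replicate 2, 14 members of that list fell and 3 rose. NRF2 targets rose in 10 of 18 members and fell in 3, but without vesicle replicate 2 only 5 rose and 2 fell. Gstp1, a glutathione transferase, was at 50.7, 176 and 64.5 CPM against 12.3, 11 and 15.1 CPM, so that replicate 2 was highest while all 3 exceeded the sorted libraries.

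Mitosis genes fell in 19 of 23 tested members and rose in 0, with a median of -0.96, and the counts were 19 and 0 without vesicle replicate 2. Bub1, a kinase of the spindle checkpoint, averaged 98.1 ± 9.27 CPM in vesicles and 284 ± 36.1 CPM in sorted cells (mean ± SD, n = 3), with no overlap (2.90-fold lower, adjusted p = 2.20e-09), and the proliferation marker Mki67 fell by 1.23. Of DNA replication genes 10 of 25 fell and 1 rose: Ccne1 fell by 2.08, whereas Pcna (-0.11, adjusted p = 0.578) and Mcm2 (-0.02, adjusted p = 0.899) did not pass. Several targets of p53 were lower as well, with the cell cycle inhibitor Cdkn1a at 8.66, 18.9 and 10.9 CPM against 69.0, 67.2 and 81.2 CPM (5.54-fold lower, adjusted p = 6.76e-09), and Mdm2 and Ccng1 lower by 1.71 and 1.90. The inhibitors Cdkn2a and Cdkn2b rose by 1.29 and 2.53, and the whole list of CDK inhibitors and p53 targets had 4 of 14 higher and 6 lower. Immediate early genes, which respond within minutes to handling and growth factors, fell in 9 of 20 members and rose in 4. Fosb was at 1.51, 1.34 and 0.932 CPM in vesicles and at 18.4, 14.5 and 34.6 CPM in the sorted cells, against a mean of 0.280 CPM in the unsorted cells, while Fos overlapped between the groups (log2 -0.84, adjusted p = 0.0536). Egr1 moved upward (log2 2.68), with vesicle replicate 1 at 0.941 CPM beside the sorted 0.710 to 1.34 CPM.

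Most of the other lists fixed for this tissue had members in both directions, though some leaned 1 way and several held few tested members. Retinoid genes rose in 4 of 11 and fell in 4, with Crabp2, a retinoic acid carrier, at a mean of 7.64 against 0.572 CPM and Cyp26a1, which degrades retinoic acid, at 22.1 against 65.5 CPM. Endocytosis genes rose in 4 of 23 and fell in 6: Cav1, the coat protein of caveolae, was at 67.2 against 0.486 CPM, its partner Cav2 had 67 counts against 0 (at least 30.6-fold higher over the group), and Rab11a, a recycling GTPase, rose by 1.65. Amino acid transporters rose in 5 of 18 and fell in 8, with Slc7a5 and Slc1a5 lower by 1.28 and 1.30, and the cystine transporter Slc7a11 at 1.99 against 0.0745 CPM. Fatty acid genes rose in 6 of 16 and fell in 3. Matrix proteases and their inhibitors rose in 6 of 19 and fell in 3, with the serine protease Htra1 at 227 against 1021 CPM. Of DNA methylation enzymes 6 of 12 fell and 3 rose (0 without sorted replicate 1, 1 without vesicle replicate 2). Iron genes rose in 3 of 9 and fell in 3 (ferritin heavy chain, Fth1, rose by 1.00), selenoproteins rose in 2 of 16 and fell in 5, metallothionein and zinc genes rose in 3 of 5 and fell in 1, Nodal and activin genes rose in 1 of 8 and fell in 2, and nuclear oxidative phosphorylation genes rose in 6 of 25 and fell in 2. Without vesicle replicate 2, 1 iron gene fell, 0 selenoproteins rose and 3 fell, 3 amino acid transporters rose, and 1 oxidative phosphorylation gene fell. Without sorted replicates 2 and 3 in turn, 2 and 3 oxidative phosphorylation genes rose. Among markers of other cell types, neural genes rose in 1 of 5 and fell in 3, endothelial genes rose in 1 of 3 and fell in 2 (1 without vesicle replicate 1 or 2, or sorted replicate 2 or 3), trophoblast genes rose in 1 of 2 and fell in 1, 1 of 2 blood genes fell (0 without sorted replicate 2 or vesicle replicate 3) and the 1 tested mesoderm gene fell. The summed neural markers were at 8.97 to 25.0 CPM in vesicles and 92.7 to 101.9 CPM in sorted cells, most of it Stmn2, a tubulin-binding protein, at 12.1 against 85.4 CPM.

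Genes of other kinds also differed by large folds. Gjb2, a gap-junction protein, was 34.2-fold higher, S1pr1, a receptor for sphingosine phosphate, 32.3-fold, and Adgre5, an adhesion receptor, 32.9-fold. Cpm, a membrane carboxypeptidase, and Pgm5, a phosphoglucomutase-related protein of cell junctions, were 28.7- and 29.9-fold higher. Among lower genes, Ror2, a receptor for Wnt5a, was at 0.377, 2.19 and 3.73 CPM against 42.9, 70.2 and 69.3 CPM (26.4-fold lower, adjusted p = 9.34e-10). Cd80, a costimulatory ligand, was 33.0-fold lower, Hspb8, a small heat-shock protein, 18.4-fold, and Ubash3b, a tyrosine phosphatase, 23.0-fold. Arhgap9, Tdh, Tcfl5 and Sema6d were 21.6-, 18.1-, 11.4- and 10.6-fold lower. Usp9y, a Y-linked gene whose X-linked copy may share its reads, was at 8.10, 6.92 and 2.21 CPM against 291, 189 and 208 CPM (41.5-fold lower), while Eif2s3y, also Y-linked, did not pass (log2 -0.11, adjusted p = 0.588) and Kdm5d rose by 1.42.

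A comparison of serum vesicles with unsorted CHIR99021-vacuolated cells, which shares no library with the first, called 58% of the 11503 genes. Of the 2891 genes higher in serum-free vesicles 2009 (69.5%) were also called higher there, and of the 2816 lower genes 1802 (64.0%) were called lower. These 3811 genes were 66.8% of the calls in the first comparison and 57.2% of those in the second, and 222 of 4033 genes called in both went in opposite directions. Across genes, which are not independent replicates, the log2 fold changes correlated at 0.764 (Pearson) and 0.672 (Spearman). The difference of both comparisons, tested as an interaction in the same fit, passed for 23.3% of genes, and for 1490 of the 5707 called in the first. Of the 13 Wnt list members, 7 were higher and 2 lower in the second comparison, beside 7 and 0 in the first. The list median was 2.36 in the second and 1.69 in the first, and the difference passed for 2 members. Junction genes were higher for 29 of 34 members in the second comparison, beside 27 in the first, and the difference passed for 6. Cdh1 had a log2 fold change of 3.13 there against 2.84 (difference -0.30, adjusted p = 0.454), Cldn4 6.22 against 5.90, Igf2 7.15 against 6.55 and Pou5f1 -4.90 against -5.47, none with a passing difference.

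Some genes differed between both comparisons. Txnip rose by 6.39 in serum-free vesicles over sorted cells and by 3.32 in serum vesicles over unsorted cells, a difference of 3.08 (adjusted p = 0.00223), and Arrdc4 by 5.21 and 1.87. Their means in unsorted cells were 10.8 and 4.59 CPM and in serum vesicles 107 and 16.5 CPM. Id3, an inhibitor of differentiation and BMP target, rose by 1.41 in the first and fell by 1.92 in the second, and the histone gene Hist1h1a rose by 1.90 and fell by 1.85. Hist1h3b rose by 2.33 in the first and did not pass in the second (log2 -0.13, adjusted p = 0.727). Peg3, an imprinted zinc-finger gene, fell by 2.80 in the first and did not pass in the second (log2 0.41, adjusted p = 0.179). The integrin Itga5 and the actin crosslinker Flnc both fell by 4.31 in the first and by less in the second, at 0.78 and 0.87. Of the immediate early list, 9 of 20 fell in the first comparison while 11 rose in the second, and the difference passed for 13. Basement membrane genes, lower for 13 of 15 in the first, were lower for 7 and higher for 3 in the second, and the difference passed for 11. Of the 7 mesenchymal transition genes, 6 were lower in the first comparison, while 2 were lower and 0 higher in the second. Their median log2 fold change was -1.48 in the first and 0.09 in the second, and the difference passed for 5. The 2 lower in the second were Vim and Cald1 (log2 -0.76), while Zeb1 (log2 0.47) and Snai1 (log2 0.09) did not pass. Fgf10 fell by 4.31 and by 6.66, and Vim fell by 1.40 in the first and dropped by 3.48 in the second. Of the 13 genes of the mitochondrial genome, 3 rose in the first comparison and 12 in the second, beside mitochondrial shares of the counts outside the top pair of 6.76 to 8.91% in sorted and 2.88 to 4.08% in unsorted cells.

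**Figure D5:**
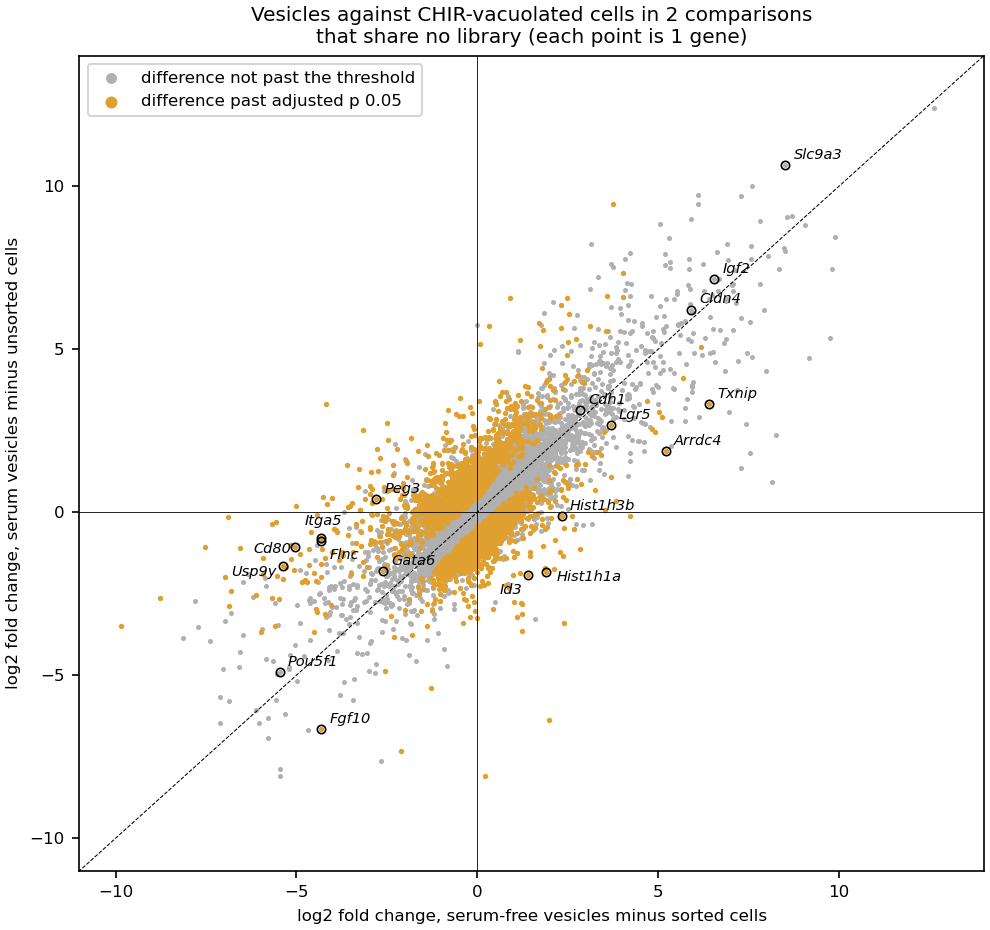
Log2 fold change of each of the 11503 genes in serum-free vesicles over sorted cells (x axis) and in serum vesicles over unsorted CHIR99021-vacuolated cells (y axis). Orange points are genes whose difference between both passed adjusted p below 0.05 (23.3%), and the dashed line is equality. Igf2, Cldn4, Cdh1 and Pou5f1 lie near the line, while Txnip, Arrdc4, Id3, Itga5 and Peg3 lie away from it.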

How the data were processed

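Total RNA depleted of ribosomal RNA was sequenced with a directional kit, per the labels' protocols. The deposited files give read counts per gene symbol for both strands together and for each strand. The submitters' processing notes name bcl2fastq, Trimmomatic 0.38, STAR 2.6.1 and the build rn6, and the counting step is not given in the sources used here. The strand column with nearly all counts was used as deposited, and the other strand held 1.73 to 2.53% in the 6 libraries compared.

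The analysis used edgeR 4.0.16 in R 4.3.3. Its default low-count filter by group (minimum count 10) kept 11503 genes. After TMM scaling, 1 robust quasi-likelihood model with a mean for each of 6 groups took all 18 libraries, leaving 12 residual degrees of freedom. Adjustment was by Benjamini-Hochberg over all genes, with calls at 0.05, and the common coefficient of biological variation was 16.1%. CPM values are TMM-scaled and fold changes are fitted. Where a group had no counts of a gene, the fold is a bound computed with 3 counts in the whole group, and where it had 1 to 3, it is a ratio with a 95% interval. Both cover counting error only. List medians were the same with such genes at their bounds. The procedure was tested on simulated data in which few genes changed, unlike these data, so that test cannot show the accuracy of these calls.

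The 44 gene lists (789 genes, 762 in the files, 615 tested), the comparison and the rules were chosen with earlier results of these data known, so a list's direction is not independent evidence. The named genes are the 12 highest and 12 lowest passing genes without overlap between groups (log2 CPM averaged over the 6 libraries no lower than 3, which leaves out genes near 0 in either group), up to 3 members per list by adjusted p, a fixed set, the 5 highest and 5 lowest differences between both comparisons (the same limit over 12 libraries), and other list members as examples. Clone-style and other placeholder symbols were passed over. The genes of vesicle replicate 2 and the Y-linked genes were chosen after their values were seen. Alternatives were RLE size factors, DESeq2 1.42.0, no filter and a minimum count of 30, the compared groups alone, the replicate number as a block, passage as a covariate, unstranded counts, thinned counts, leaving out the 2 most abundant and the mitochondrial genes, and leaving out each library in turn. Promoters came from RefSeq on GRCr8, by symbol. Some genes that these rules pick are not reported here.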

Additional observations from a re-analysis of the deposited data

Results flagged for a closer look

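The values below are differences between both comparisons, serum-free vesicles over sorted cells minus serum vesicles over unsorted cells, on the log2 scale, and each passed the edgeR interaction test at an adjusted p below 0.05. Medium, serum and sorting differ between the comparisons. LIF is stated for the serum-free vesicles only, and the labels leave the CHIR99021 dose of the serum vesicles unclear. The parts of these in any difference were not tested and cannot be told apart.

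Among the genes most raised in serum-free vesicles, the difference was 3.08 for Txnip, 2.16 for Gjb2, 1.94 for S1pr1, 2.45 for Pgm5 and 1.28 for Car2. Among those most lowered, it was -3.73 for Usp9y, -3.98 for Cd80, -2.57 for Ror2, -0.85 for Ubash3b, -2.36 for Amn, -1.37 for Arhgap9, -1.07 for Hspb8 and -1.21 for Phlda2, but 2.35 for Fgf10, which fell further in the second comparison.

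Of the genes fixed for the lists, the difference was 1.02 for Lgr5, 2.08 for Vim, -0.80 for Gata6, 0.68 for Sox17, 0.93 for Sparc and 0.81 for Thbd. It was 0.75 for Socs3, 0.65 for Hmgcs1, -3.05 for Fos and -1.05 for Tfrc, the transferrin receptor.

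Other genes named for a large difference were Hist1h1a (3.75), Id3 (3.33), Arrdc4 (3.33) and Hist1h3b (2.46) in 1 direction and Peg3 (-3.21), Flnc (-3.44) and Itga5 (-3.53) in the other.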

How the results depend on the processing

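The count of differing genes ranged from 4781 with thinned counts to 5937 with no low-count filter. Leaving out each library in turn gave 4905 to 5467 genes. No count over all genes moved by more than 1.5 times in the 16 settings, the percentage of calls that were higher ran from 47.5 to 52.0, and DESeq2 called 5712. With the replicate number as a block 5588 genes differed, of which 5541 were among the 5707. The main model did not pair same-numbered libraries. Correlations of their deviations from the group mean were -0.121, -0.018 and 0.053. Differently numbered pairs ranged from -0.16 to 0.18. With 3 libraries a group, such correlations cannot decide whether libraries share an origin. The check by gene covered the 151 tested genes named by fold change, by list adjusted p or in the fixed set. Of these, 137 kept their direction and their side of the threshold in every setting that tested them, and none reversed. Among the 14 others were Axin2, Pdgfra, Socs3, Fos, Sox17, Sox7, Tdgf1 and Tfrc. Among lists, NRF2 targets higher went from 10 to 5 without vesicle replicate 2, and brush border genes higher from 7 to 11 without vesicle replicate 3 and to 12 with no filter. Visceral endoderm and hepatic secretory genes higher went from 6 to 14 with no filter. Depth outside the 2 most abundant genes (2.67 to 6.54 M counts) limits genes near 1 CPM, and with 3 libraries a group the SE is itself uncertain.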
